A study of Mus musculus with 2 samples.

Results

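The fetal red blood cell genes described here are 9 genes used mainly by cells of the erythroid lineage, namely the globin genes Hba-a1, Hba-x, Hbb-y and Hbb-bh1, and Alas2, Ahsp, Slc4a1, Klf1 and Rhag. These members were chosen by name, as all array probes that the scanner files assign to these symbols, and were followed in RNA of embryonic mouse ureters. The 9 genes had 10 probes, of 39429 probes and 29982 genes with values on the array, and Hbb-y was the gene with a pair of probes. All 9 genes were detected, since every spot of their probes that was kept lay well above background in both RNAs of both arrays.

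The study asked which transcripts change in the ureter when the nuclear receptor gene Pparg is deleted. Ureters were dissected at E16.5 (the embryonic stage in days) from Pparg-cKO embryos (Pax2-cre/+; Pparg(fl/fl)) and from control embryos (Pparg(fl/?), littermates without cre by the study's methods), all on an outbred NMRI background. Pax2-cre is active in the nephric duct and its derivatives, the ureteric epithelium among them. RNA was pooled over several embryos of 1 sex, and each pool of mutants was hybridised together with a pool of controls on a dual-colour 60-base oligonucleotide array. Array 1 held the female pools and array 2 the male pools, with the dyes exchanged, so sex, dye and array changed together and cannot be told apart.

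The labels and the study's text disagree on which dye held which genotype, and the RNAs are therefore called RNA A and RNA B. RNA A was read in red on array 1 and in green on array 2. It is the control by the labels and Pparg-cKO by the direction the study uses. RNA B is its partner on each array. No genotype is assigned here to a brighter or dimmer signal. The stage label of channel 2 reads E14.5, against E16.5 in titles and protocols.

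Red blood cells of the mouse embryo come in waves. Primitive cells from the yolk sac carry the embryonic globins, the alpha-like zeta chain of Hba-x and the beta-like chains of Hbb-y and Hbb-bh1, and enter the blood with a nucleus. Definitive cells from the fetal liver carry the adult chains, among them the alpha chain of Hba-a1, and gradually take over in the fetal circulation. Young cells of either wave still hold the messenger RNA of globin, of haem synthesis and of the red cell membrane, so blood left in the vessels of a dissected organ contributes these transcripts to its RNA.

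The sequences of 4 probes are given to show what the globin and Ahsp signals rest on, 5′ to 3′ in lower case. They lie in the protein-coding part of the transcripts, and can be read through in 1 frame without a stop codon. By the array file (build mm9), the Hba-a1 probe lies at chr11:32183955-32184014 on the plus strand, the Hba-x probe at chr11:32177668-32177727 on the plus strand and the Hbb-y probe at chr7:111000448-111000507 on the minus strand. The Ahsp probe has no position there. The file lists the Hba-a1 probe for the transcripts of both Hba-a1 and its near-identical copy Hba-a2, so its signal cannot be divided between these genes.
Hba-a1: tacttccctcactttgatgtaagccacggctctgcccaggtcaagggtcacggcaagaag
Hba-x: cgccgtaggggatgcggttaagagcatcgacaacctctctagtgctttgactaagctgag
Hbb-y: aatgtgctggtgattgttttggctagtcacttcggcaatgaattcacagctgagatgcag
Ahsp: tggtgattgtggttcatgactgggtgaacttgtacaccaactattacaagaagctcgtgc

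The other Hbb-y probe, at chr7:111000268-111000327 on the minus strand (mm9), lies nearer to the 3′ end of the transcript and was the only one of the 10 probes to hold the polyadenylation signal, in capitals in the stretch catgtttAATAAAgatcatc. It was the brighter Hbb-y probe and represents the gene below. Both probes gave nearly the same comparison. The log2 ratio of RNA A over RNA B was 0.25 (array 1) and 0.12 (array 2) for this probe, beside 0.30 and 0.16 for the coding probe.

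Array-wide, 80.3% to 80.4% of green and 70.4% of red spots lay well above background, and no spot was saturated. The ureter was well represented, with signals of the urothelial plaque gene Upk3a between 30472 and 51988 and of the smooth muscle actin gene Acta2 between 39606 and 72555. The targeted gene Pparg read 11295 (RNA A) and 7430 (RNA B) in the female pools and 12888 and 7872 in the male pools. This probe starts at base 1562 of the transcript, away from the deleted exons near its 5′ end, and so checks neither set of labels.

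None of the 9 red cell genes differed between RNA A and RNA B by either test. The 1.5-fold filter took 0 of them in either direction. It asks that array 1 and array 2 both show the same RNA ahead by 1.5-fold or more, and that this RNA reads 100 or more. Of all 29982 genes, 0.157% passed it with RNA A ahead and 0.23% with RNA B ahead. No member reached 1.5-fold in opposite directions on the arrays, as 0.43% of all genes did. The limma test over 21429 detected genes called 0 members, each with an adjusted p of 0.9999 (unadjusted p from 0.187 to 0.972, none under 0.05), against 0.313% of the genes tested. Across all genes tested, 810 had an unadjusted p under 0.05. For any single gene, the smallest p that exact sign flips of 2 arrays allow is 0.5, and the number of arrays limits the precision of every ratio. The median of the members' mean log2 ratios was 0.021, beside 0.0067 for all genes tested. In these bulk samples, fewer red cells and less RNA per red cell cannot be told apart.

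The globins come first. For Hba-a1, the adult alpha chain, RNA A gave a processed signal of 62529 and RNA B of 54880 on the female array, with 59035 and 66584 on the male array. The RNA read in red was thus the brighter on both arrays, by log2 ratios of RNA A over RNA B of 0.19 and -0.17, and the values of the RNAs overlapped. The mean log2 ratio was 0.0073 ± 0.26 (SD, n = 2 arrays).

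Among the embryonic globins, Hba-x read 916 (RNA A) and 861 (RNA B) in the female pools and 676 and 521 in the male pools. Hbb-y read 10030 and 8456 in female, 6091 and 5609 in male pools. RNA A was the brighter on both arrays for these genes, but by little, and their mean log2 ratios were 0.23 ± 0.20 and 0.18 ± 0.090 (SD, n = 2 arrays). Hbb-bh1 read 507 (RNA A) and 419 (RNA B) in the female pools, followed by 264 and 300 in the male pools. It followed the red dye, as Hba-a1 did, with log2 ratios of 0.27 and -0.18.

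Alas2 makes the erythroid form of the first enzyme of haem synthesis. Its female pools read 5039 (RNA A) and 6108 (RNA B), its male pools 3800 and 3044. Ahsp, the chaperone that holds free alpha globin, read 6888 and 7513 in female pools and 5382 and 3854 in male pools. For both genes the RNA in green was brighter on each array, so the direction of RNA A against RNA B turned, from -0.28 to 0.32 for Alas2 and from -0.13 to 0.48 for Ahsp.

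Slc4a1 encodes band 3, the anion exchanger and main integral protein of the red cell membrane. Female pools read 880 (RNA A) and 1363 (RNA B), and male pools 570 and 574. This was the member with the largest mean log2 ratio in size, -0.32 ± 0.44 (SD, n = 2 arrays), and it rested on array 1, where RNA B was the brighter by a log2 ratio of -0.63. On array 2 the RNAs were nearly equal, at -0.0098. Rhag, the Rh-associated glycoprotein of the same membrane, read 41.2 and 55.8 in female pools and 28.3 and 22.3 in male pools, below the signal threshold throughout.

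Klf1, the transcription factor that switches on adult beta globin and many other red cell genes, read 120 (RNA A) and 138 (RNA B) in the female pools, then 71.4 and 66.3 in the male pools. Rhag and Klf1 were again brighter in green on both arrays, with log2 ratios of -0.44 and 0.34 for Rhag and of -0.19 and 0.11 for Klf1. Of the 9 members, 2 thus had RNA A ahead on each array, 1 had RNA B, 2 had the red dye and 4 had the green dye. Over all genes tested these counts were 4627, 3731, 6082 and 6989. The dye was not tested apart from sex and array.

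**Figure D1:**
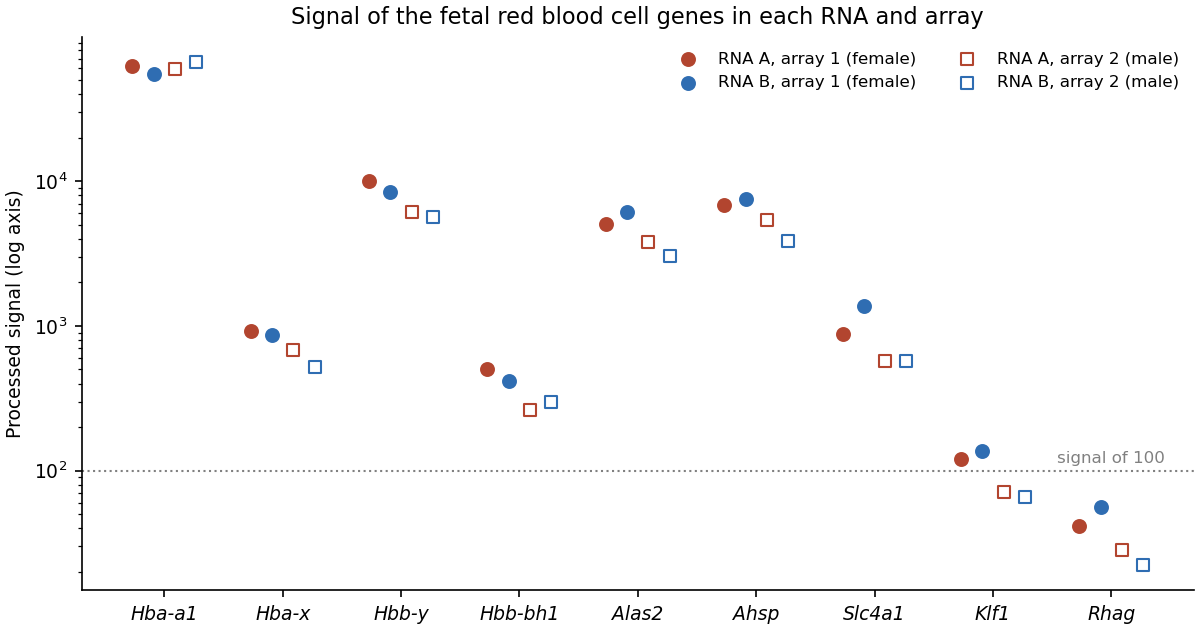
Processed signal (log axis) of the 9 fetal red blood cell genes in RNA A and RNA B of array 1 (female pools, filled circles) and array 2 (male pools, open squares); each point is the mean of log2 signals over the spots of 1 probe on 1 array. For every gene but Hba-a1, both points of array 2 sit below both points of array 1, and the dotted line marks a signal of 100.

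**Figure D2:**
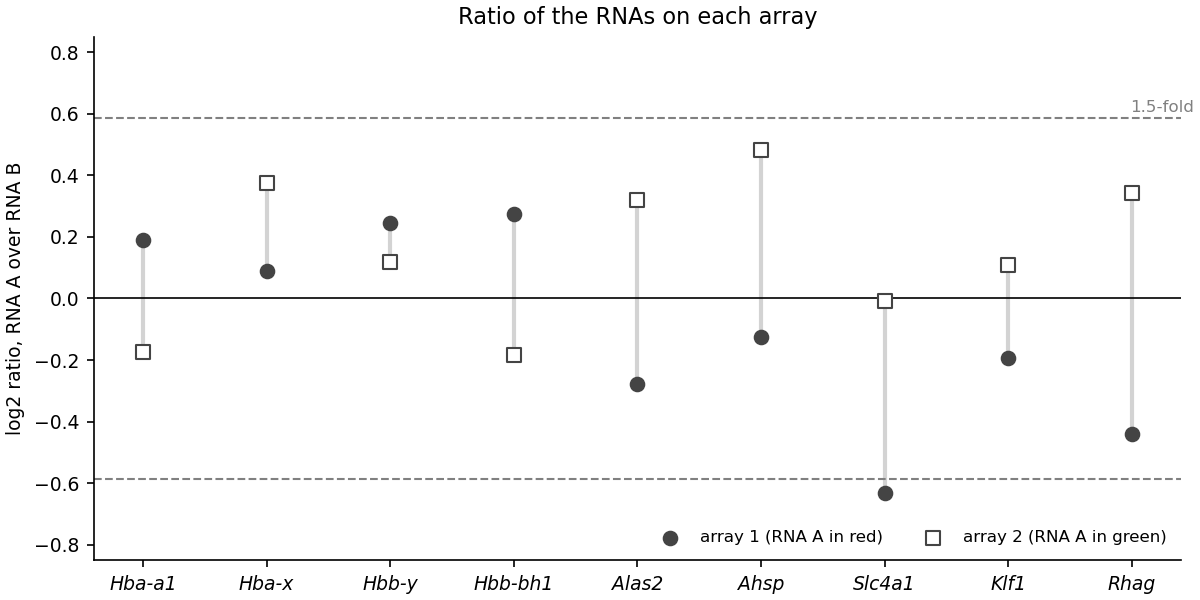
Log2 ratio of RNA A over RNA B for the same genes on array 1 (filled circles) and array 2 (open squares), joined by a line for each gene; dashed lines mark 1.5-fold. Only Slc4a1 on array 1, at -0.63, lies past 1.5-fold, and 6 of the 9 genes change sign between the arrays.

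By the signals themselves, the arrays differed more than the RNAs did. For 8 of the 9 members, all but Hba-a1, both signals of array 2 were below both signals of array 1, as for 8.59% of all genes tested. The level of an array was then taken as the mean of the log2 signals of its RNAs, 1 read in red and 1 in green, after the arrays had been brought to the same distribution. With 1 array of each sex this difference is a description and has no test. The level was at least 1.5-fold lower on array 2, with a level of 100 or more on the array where it was higher, for 7 members, against 1.1% of the genes bright enough to be counted. In the green channels alone the count was 4 members, against 2.01% of these genes, and in the red channels alone 7, against 1.81%. The median difference of array 2 minus array 1 was -0.80 on the log2 scale over the members and -0.011 over all genes tested, of which the lowest 1% lay at or below -0.90.

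The embryonic globins were lower on array 2 by closely similar factors, 1.62-fold for Hba-x, 1.68-fold for Hbb-y and 1.75-fold for Hbb-bh1. Alas2 was 1.74-fold and Ahsp 1.68-fold lower. The membrane and transcription factor genes showed somewhat larger differences, of 2.05-fold for Slc4a1, 1.99-fold for Klf1 and 1.97-fold for Rhag, and Rhag was too dim to be counted. Hba-a1 did not follow them, with a difference of 0.024 on the log2 scale. Its signal lay near the top of the scale, though no spot was saturated. None of the 692 genes with a mean signal of at least 30000 differed between the arrays by 1.5-fold, their differences running from -0.49 to 0.26. Whether brightness had a part in the small difference of Hba-a1 was not tested.

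All 8 genes were below 0 within each dye, though by less than 1.5-fold for Hba-x, Hbb-y and Ahsp in green. In green, where RNA A of array 2 is set against RNA B of array 1, the members' unscaled log2 differences had a median of -0.67 and ran from -1.26 for Slc4a1 to 0.11 for Hba-a1. In red, where RNA B of array 2 is set against RNA A of array 1, the median was -0.81 and the range -0.88 for Rhag to 0.091 for Hba-a1. Slc4a1 was the lower by more in green, and Hba-x, Hbb-y and Ahsp by more in red.

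Of the remaining globin genes, the adult ones differed little between the arrays, at signals near the top of the scale. Of 9 such genes listed, 7 were on the array and 6 were detected, and neither the filter nor limma called any of them between the RNAs. The adult alpha gene Hba-a2 gave 60501, 64412, 62656 and 63145 in RNA A and RNA B of array 1 and then of array 2, and the adult beta genes Hbb-b1, Hbb-b2 and Hbb-bt lay between 29209 and 78024. Like Hba-a1, these adult genes were among the 692 with a mean signal of at least 30000, none of which differed by 1.5-fold. A part of brightness in their small differences was not tested either. The level differences of Hba-a2, Hbb-b1 and Hbb-b2 between the arrays were -0.070, -0.063 and -0.17. Hbb-bt was the brightest gene of all, so that the scaling fixes its difference at 0, and its unscaled differences were -0.036 in green and 0.12 in red. The dim theta-like genes Hbq1a and Hbq1b lay lower on array 2, at -0.37 and -0.48, and were not counted. The mean log2 ratios of the detected globins of this list ran from -0.079 for Hbb-bt to 0.20 for Hbq1a.

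Further red cell genes were grouped by role. None of the haem synthesis genes (9 detected), iron uptake and delivery genes (7), membrane and skeleton genes (14), erythroid transcription factors with the erythropoietin receptor (8) or other red cell proteins (12) passed the filter or the limma test between the RNAs. Their median mean log2 ratios were -0.087, -0.10, -0.12, 0.075 and 0.012. The highest and lowest single values were 0.11 for Urod and -0.32 for Ppox, enzymes of haem synthesis, and 0.17 for the iron reductase gene Steap3 and -0.28 for Slc25a37, the mitochondrial iron importer mitoferrin. The lowest value of the membrane list was -0.65 for the blood group gene Xk, and the transcription factors ranged from -0.063 for Zfpm1 to 0.24 for Lmo2. The other red cell proteins ranged from -0.60 for Trim58 to 0.23 for Cldn13.

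Between the arrays, the membrane and skeleton list had the lowest median of these lists, -0.36. Of its 14 genes, 12 were below 0, beside 11393 of all 21429 genes tested. Counted as at least 1.5-fold lower on array 2 were 3 genes of the list. Among these were the blood group genes Kel, 1.77-fold lower, and Rhd, 1.54-fold lower. Epb42, a partner of band 3 in the membrane skeleton, read 54.0 (RNA A) and 67.7 (RNA B) in female pools, then 31.9 and 30.0 in male pools. It was 2.02-fold lower on array 2, but too dim to be counted.

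The transcription factor list had a median level difference of -0.12. Gata1, the master regulator of red cell genes, read 43.5 (RNA A) and 63.6 (RNA B) in female pools and 36.0 and 25.3 in male pools, a level difference of -0.85. Nfe2 and Gfi1b lay at -0.71 and -0.56, whereas Tal1 (-0.095), Lmo2 (-0.14), Zfpm1 (0.096), Epor (0.039) and Bcl11a (-0.018) lay near 0, and no gene of the list was bright and different enough to be counted. In this list 7 of 8 genes were brighter in green on both arrays, all but Lmo2, beside 6989 of 21429 genes tested. The list's median log2 ratio of RNA A over RNA B was -0.34 on array 1 and 0.50 on array 2. Of the other red cell proteins, Trim10 was 1.93-fold and the carbonic anhydrase gene Car2 1.57-fold lower on array 2, and of the iron genes Slc25a37 was 1.57-fold lower. The haem synthesis list, whose genes act in every cell, had a median level difference of -0.011 and no gene counted.

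**Figure D3:**
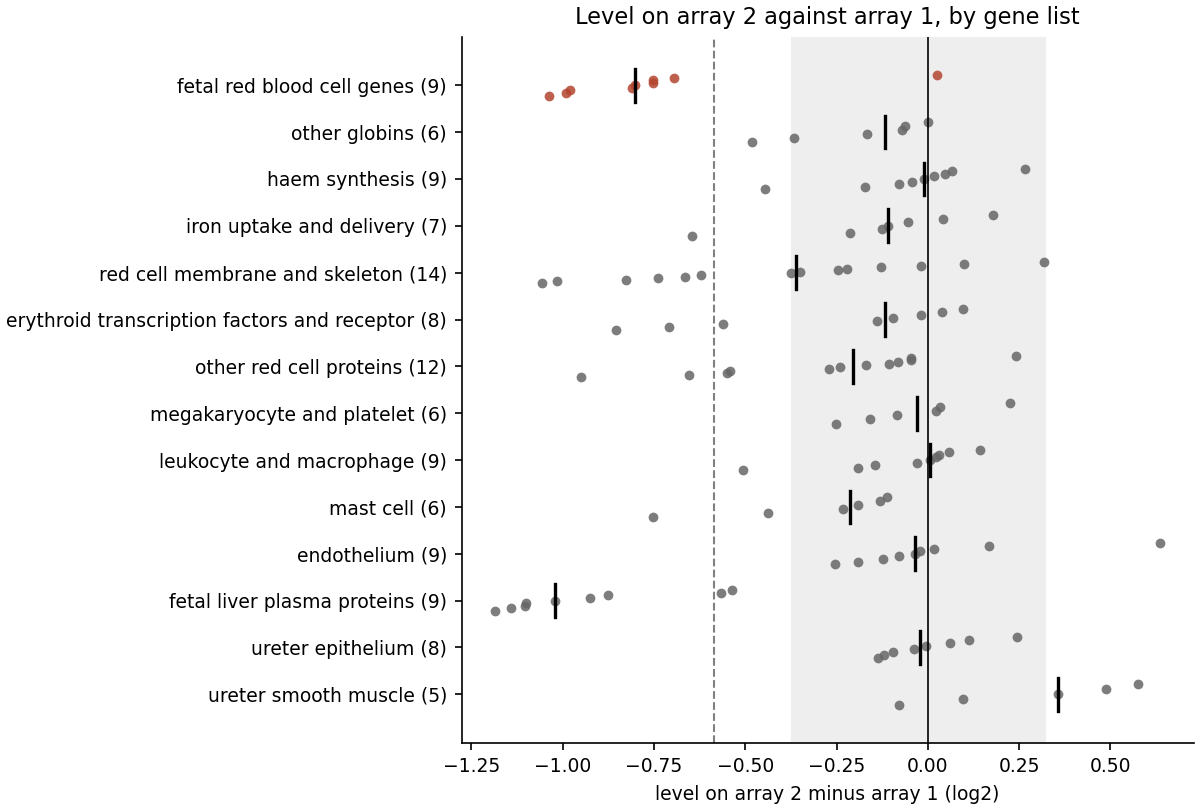
Level on array 2 minus level on array 1 (log2) for the 9 fetal red blood cell genes and for the detected genes of 13 lists, with 1 point per gene, the number of genes in parentheses and a black bar at each median. The grey band runs from the 5th to the 95th percentile of all genes tested and the dashed line marks 1.5-fold lower on array 2; the red cell genes (median -0.80) and the fetal liver plasma protein genes (median -1.02) lie furthest to the left.

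Genes of other cells that blood or neighbouring tissue could bring were read on the same arrays. The level differences of platelet genes had a median of -0.030 (6 detected, lowest -0.25). Those of leukocyte and macrophage genes had a median of 0.0065 (9 detected, lowest -0.51 for Ptprc). Ptprc was 1.42-fold lower on array 2, at signals between 35.4 and 60.3. None of these genes was counted as lower. Endothelial genes had a median of -0.034, with Egfl7 alone counted, as higher on array 2. Mast cell genes had a median of -0.21, with Hdc, the histamine-forming enzyme, 1.69-fold lower. The ureter's own epithelial genes had a median of -0.022 and its smooth muscle genes one of 0.36, and no gene of either list was counted.

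Genes of plasma proteins made by the fetal liver were lower on array 2 as well. All 9 were below 0 (11393 of 21429 over all genes tested), with a median of -1.02, and 6 were counted as at least 1.5-fold lower. Albumin (Alb) read 2598 (RNA A) and 2024 (RNA B) in female pools and 690 and 1708 in male pools. Alpha-fetoprotein (Afp) read 3213 and 3454, and then 1150 and 3052. Unlike the red cell genes, these were low mainly in 1 of the 4 readings, RNA A of array 2. Their median difference between the arrays was -1.42 in green and -0.23 in red, against -0.67 and -0.81 for the red cell genes. The summed signals of the 9 plasma protein genes were 13910 and 12823 on array 1 and 5731 and 11749 on array 2, and their part in the level of the red cell genes was not tested.

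**Figure D4:**
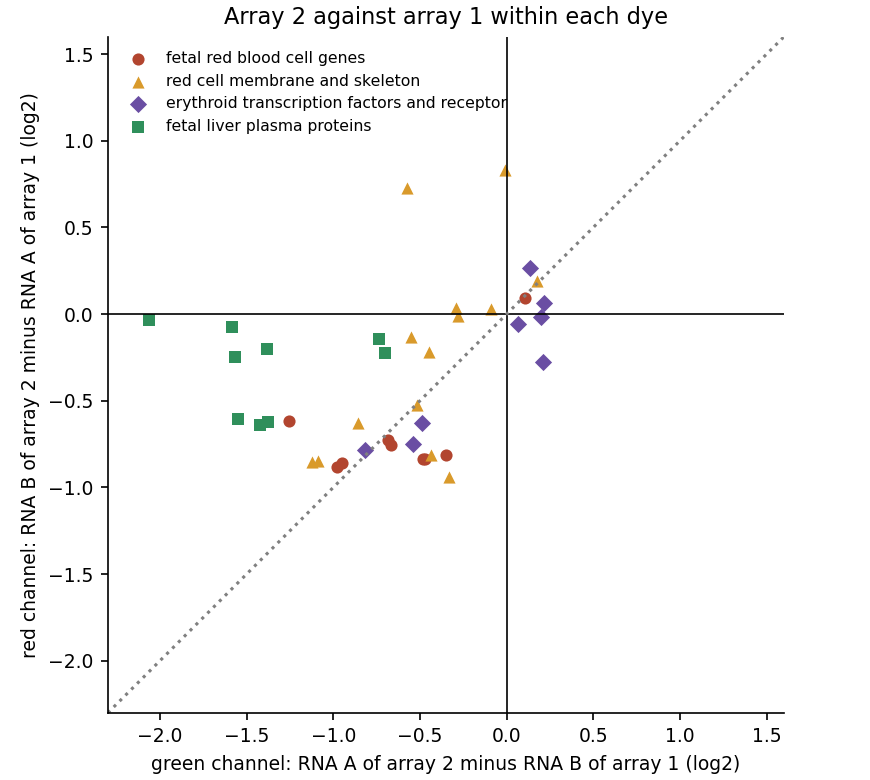
Array 2 minus array 1 (log2, unscaled signals) within the green channel (horizontal axis) and within the red channel (vertical axis), with 1 point per gene of 4 groups and a dotted line where both are equal. The red cell genes other than Hba-a1 lie below 0 on both axes, while the fetal liver plasma protein genes (median -1.42 in green and -0.23 in red) lie to the left.

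Between the RNAs, the ureter's own lists lay further from 0 than the red cell genes, whose median mean log2 ratio was 0.021. All 5 smooth muscle genes had RNA B ahead on both arrays, with a median of -0.58, and 5 of 5 had an unadjusted limma p under 0.05. The epithelial list had a median of -0.47, with RNA B ahead on both arrays for 5 of 8 genes and 4 of 8 under 0.05. The plasma protein list also had a median of -0.47, with RNA B ahead on both arrays for 4 of 9 genes and 3 of 9 under 0.05. Over all 21429 genes tested, 3731 had RNA B ahead on both arrays and 810 had an unadjusted limma p under 0.05. The mast cell genes Cpa3 and Cma1 passed the filter with RNA A ahead, Cpa3 at 795 and 281 (RNA A and RNA B) in female and 651 and 288 in male pools, and limma called Cpa3 (adjusted p = 0.047, mean log2 ratio 1.34). The epithelial gene Upk3a passed it with RNA B ahead, by log2 ratios of -0.64 and -0.77. No platelet, leukocyte and macrophage, endothelial, plasma protein or smooth muscle gene passed either test. Their highest and lowest mean log2 ratios were 0.24 for Pf4 and -0.31 for Treml1 in platelets, 0.39 for Lyz2 and -0.15 for Itgam in leukocytes and macrophages, and 0.28 for Cldn5 and -0.29 for Egfl7 in endothelium. They were -0.24 for Trf and -1.01 for Ttr among plasma proteins, -0.56 for Acta2 and -0.80 for Myh11 in smooth muscle, 0.091 for Epcam in epithelium and 0.013 for Tpsb2, the lowest of the mast cells.

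The gene with the largest mean log2 ratio among members with a signal of at least 100 in all 4 readings was Slc4a1. Among 14578 other genes this bright, those with the most similar pair of ratios were Grhl1, Fblim1, Fam193b, Vmn2r35 and Maz, at Euclidean distances of 0.0090 to 0.031. They shared the ratios over 2 arrays only, and their level differences between the arrays, from -0.13 to 0.29, did not resemble the -1.04 of Slc4a1.

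As the members were chosen as red cell genes, the stretches before their transcription starts were read for motifs known from such genes. A link between these motifs and the level differences of the arrays was not tested. RefSeq (build GRCm38.p6) gave a start for 6 of the 9, namely Hba-a1, Hba-x, Hbb-y, Alas2, Klf1 and Rhag. Motifs were sought on both strands in the 250 bases before the start. The letters AGATAA or TGATAA, bound by GATA factors, occurred in all 6, and in 16.6% of 32851 promoters of the genome. CACCC, bound by KLF factors, also occurred in all 6, and in 52.0% of all promoters. CCAAT occurred in 4 of the 6 and in 33.8% of all promoters, and TATAAA in 2 of the 6 (Hba-x and Alas2) and in 12.4% of all promoters; in Rhag a CACCC match and a CCAAT match on the other strand overlap. These matches are a description of the letters and not of binding, and Hba-a1, with a level difference of 0.024, held them too.

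The last 120 bases before the start are shown for 4 of these genes, 5′ to 3′ along the gene, with every motif match in capitals (on the other strand, CCAAT appears as ATTGG and CACCC as GGGTG, while the GATA motifs appear as TTATCT or TTATCA). They are Hba-a1 (chr11:32283552-32283671, plus strand), Hba-x (chr11:32276480-32276599, plus strand), Alas2 (chrX:150547297-150547416, plus strand) and Klf1 (chr8:84901862-84901981, plus strand), all in GRCm38.p6. Some matches lie further upstream and are not shown. These are the GATA match of Hba-a1, the TATAAA match of Alas2 and another CACCC match in both Hba-a1 and Hba-x.
Hba-a1: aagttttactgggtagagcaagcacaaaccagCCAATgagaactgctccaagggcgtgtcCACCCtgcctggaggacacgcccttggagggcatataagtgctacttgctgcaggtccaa
Hba-x: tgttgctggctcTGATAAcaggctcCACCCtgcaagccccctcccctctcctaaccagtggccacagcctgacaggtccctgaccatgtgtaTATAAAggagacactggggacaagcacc
Alas2: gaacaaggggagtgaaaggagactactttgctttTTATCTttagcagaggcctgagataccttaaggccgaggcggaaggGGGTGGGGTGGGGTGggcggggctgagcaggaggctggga
Klf1: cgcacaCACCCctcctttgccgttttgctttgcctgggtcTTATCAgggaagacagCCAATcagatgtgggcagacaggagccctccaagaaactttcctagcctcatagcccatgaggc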

How the data were processed

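Pools of ureters were measured on 2 dual-colour arrays, 1 per sex, both on 1 slide and read in 1 scan. The deposited intensities come from Agilent's Feature Extraction (version 10.7.3.1 in the headers) and are the background-subtracted, dye-normalised processed signals of each spot in red and green. The files also hold deposited log10 ratios of red over green. The authors' value table holds signed fold changes and served as an alternative only. The members and lists were chosen with earlier results of these data known.

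Spots flagged as outliers were left out, the log2 signals of a probe's remaining spots were averaged, and the brightest probe represented a gene. Names followed RefSeq for 28328 probes and the file for 11101. A gene was tested where at least 0.5 of the spots of 1 RNA lay well above background on both arrays. The 1.5-fold filter (signal of at least 100) and limma 3.58.1 (R 4.3.3; intercept of the 2 log2 ratios, eBayes, Benjamini-Hochberg over 21429 genes, called at 0.05) compared RNA A with RNA B, and Aquantile scaling came before levels of arrays were set side by side. Pools were separate for each array. The p-values rest only on the spread between 2 arrays that differ in sex and dye. For each gene, eBayes draws this spread towards that of all genes tested. The fit was run on simulated data whose changes were larger than any member's ratio. It was not tried on differences of the members' size. For each list, the text names the detected genes with the highest and lowest mean log2 ratio and those past the filter; other list genes were chosen after their values were seen, and some list genes are not reported here by name. Alternatives covered background correction (normexp, offset 50), loess, centring, flags, spot medians, probe means, thresholds and leaving out each array.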

Additional observations from a re-analysis of the deposited data

How the results depend on the processing

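Between RNA A and RNA B, limma called 0 members under all 9 alternatives tried for it, with adjusted p from 0.9999 to 1 for the ratios. The filter took 0 members in either direction under every alternative but 1: with array 2 left out, Slc4a1 alone passed as brighter in RNA B, so that the count without 1 array ran from 0 to 1. The median log2 ratio of the members was 0.12 without array 1 and -0.13 without array 2. Mean log2 ratios close to 0 changed sign, for Hba-a1 to -0.0054 with the median over spots, -0.0071 with centring and -0.022 in the authors' table, and for Alas2 to -0.011 with normexp and loess. The other 59 of 63 ratios kept their sign. Without replicate 1 and without replicate 2 a gene has a single ratio and no test.

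Between the arrays, 6 to 8 members were at least 1.5-fold lower on array 2 under the scalings, normexp and the absence of a signal threshold. In the green channels alone, chosen after the data were seen, 4 were. The median level difference was -0.93 in the red and -0.77 in the green channels alone, after each had been scaled between the arrays. Without scaling it was -0.81 in red, -0.67 in green and -0.71 for the mean of both channels. The comparison of RNA A with RNA B was paired, since each array pairs the RNAs and the ratio within an array is the value tested. The number of arrays, and signals under 100 for Rhag, limit these values.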
